A study of Saccharomyces cerevisiae with 2 samples.

Results

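The genes described here are the vacuolar protein sorting (VPS) genes of the budding yeast Saccharomyces cerevisiae, taken as every gene whose symbol is VPS followed by a number. The rule gave 41 genes, read by 66 array features, of 5598 named genes measured. Yeast supplied with 3% pyruvate was compared with yeast supplied with 2% glucose by hybridising total RNA of both conditions together on both of 2 arrays of opposite dye order. On array 1 the glucose RNA was labelled with Cy5 and on array 2 with Cy3. The sources used here give no strain, genotype, growth medium or culture time, nor do they tell if each array had its own cultures, so the p-values reflect array-to-array spread alone, possibly technical.

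VPS genes were found in screens for yeast that secrete proteins meant for the vacuole, the degradative compartment that plays the part of the lysosome. Their products act in a chain: a lipid kinase and a small GTPase of the Rab5 family mark the endosome, tethering complexes (CORVET on endosomes, HOPS on the vacuole) bring membranes together, and the ESCRT complexes fold ubiquitin-tagged membrane proteins into vesicles inside the endosome. Retromer carries sorting receptors from the endosome back to the Golgi, where the GARP complex tethers the returning vesicles. Changes of carbon source are known to bring turnover of plasma membrane transporters, which reach the vacuole by the ESCRT route.

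Every value below is a log2 ratio of pyruvate over glucose, positive where the transcript was higher in pyruvate. It is a difference between conditions and carries no level of a gene, and in bulk RNA fewer cells with a transcript and less of it per cell cannot be told apart. The direction assumes that the deposited ratios are Cy5 over Cy3, which is likely but stated by no source. If it were Cy3 over Cy5, all signs here would be inverted. PCK1, FBP1, ICL1 and JEN1, genes of gluconeogenesis, the glyoxylate cycle and monocarboxylate uptake that glucose is known to repress, had mean ratios of 4.30, 5.53, 3.80 and 5.78 when read this way. The median over all 5598 genes was 0.10, with 0.18 on array 1 and 0.02 on array 2, so small positive ratios lie close to that of a typical gene. A gene passed where limma's adjusted p was under 0.05, with the adjustment over all genes. An exact sign test on 2 arrays cannot give a p below 0.5, so values over a complex are given without a test.

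Most VPS genes differed little between the carbon sources. By limma, 9 of the 41 genes were called higher in pyruvate (rose), 1 lower (fell), and 31 did not pass. Over all genes, 44.3% passed, 27.1% as higher and 17.2% as lower, against 24.4%, 22.0% and 2.44% of the VPS genes. An unadjusted limma p under 0.05 was reached by 14 VPS genes (34.1%), 10 higher and 4 lower. That level was reached by 56.8% of all genes, with 1870 genes higher and 1310 lower. A mean ratio within 1.5-fold of equality was found for 35 VPS genes (85.4%), against 58.3% of all genes. Values lay above 0 on both arrays for 19 VPS genes, below 0 on both for 14, and on opposite sides for 8. For all genes the shares above and below 0 on both arrays were 47.3% and 36.3%. The median SD between arrays was 0.10 for VPS genes and 0.13 for all genes. At least 2-fold on both arrays stood 2 VPS genes, VPS20 and VPS60, both higher, where 12.7% of all genes were higher and 4.81% lower by that rule.

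The number that rose depends on the centring of the arrays. With each array centred on its median over genes, 5 VPS genes rose and 1 fell, and 47.4% of all genes passed, 24.9% as higher and 22.5% as lower. The genes that no longer passed after centring were VPS13, VPS27, VPS55 and VPS68. VPS20, VPS25, VPS28, VPS60, VPS71 and VPS70 passed under both scalings. After centring, 0 VPS genes stood at least 2-fold higher or lower on both arrays, against 610 higher and 314 lower of all genes.

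**Figure D1:**
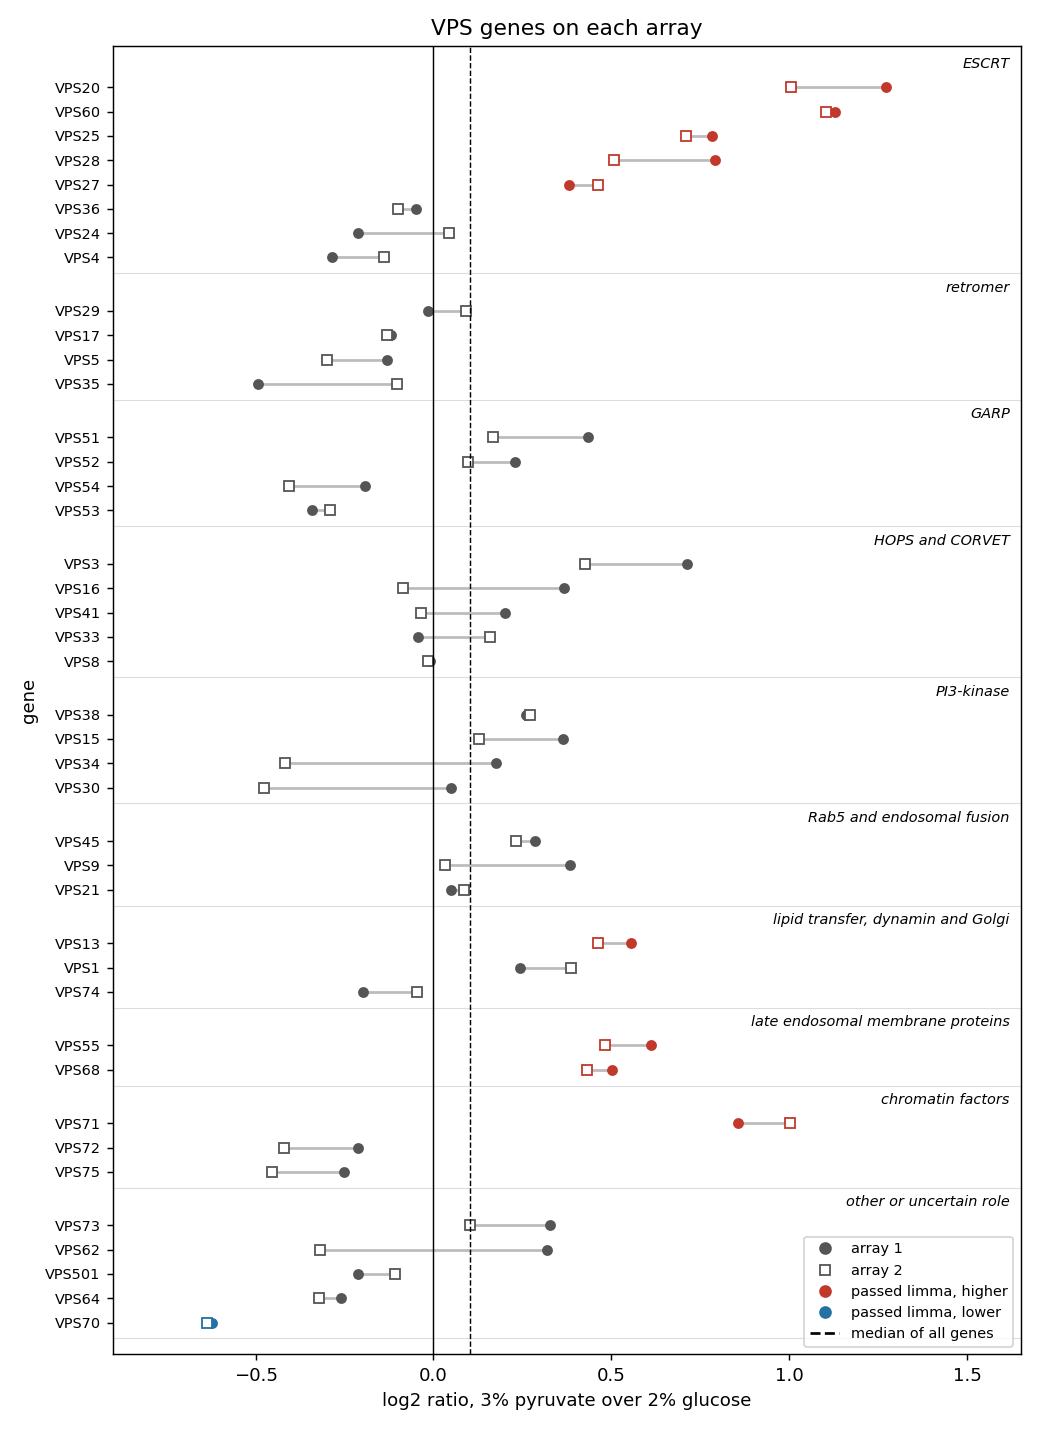
Log2 ratio of pyruvate over glucose (horizontal axis) for each of the 41 VPS genes (rows, grouped by complex or role), with array 1 as filled circles and array 2 as open squares; red genes rose and the blue gene fell by limma as deposited. Of the 8 ESCRT genes 5 are red, VPS20 and VPS60 being farthest right, and no retromer, GARP, HOPS and CORVET or PI3-kinase gene is coloured.

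The ESCRT genes held 5 of the 9 increases. In this group of 8 VPS genes, 5 rose, 3 did not pass and 0 fell (0 were lower at an unadjusted limma p under 0.05). After centring 4 rose. These were 62.5% and 50% of the group, where 27.1% and 24.9% of all genes rose. The median ratio was 0.54 (0.58 on array 1 and 0.49 on array 2, and 0.43 after centring). ESCRT-III subunits polymerise on the endosomal membrane and cut vesicles off into its interior. VPS20, the subunit that starts the polymer, stood at 1.27 on array 1 and 1.004 on array 2, a mean of 1.14 ± 0.19 (SD, n = 2; 2.20-fold; limma adjusted p = 0.0189). VPS60, an ESCRT-III relative that helps to regulate disassembly, stood at 1.13 and 1.10, a mean of 1.12 ± 0.02 (SD, n = 2; 2.17-fold; limma adjusted p = 0.0147). These were the highest ratios of all VPS genes, and as deposited both arrays put both genes at or above 2-fold. After centring, VPS20 stood at 1.09 and 0.98 and VPS60 at 0.95 and 1.08, so each was under 2-fold on 1 array. VPS24, another ESCRT-III subunit, gave -0.21 and 0.04 and did not pass, so that VPS20 lay above it by 1.48 on array 1 and 0.96 on array 2. VPS4, the ATPase that takes the polymer apart, gave -0.28 and -0.14 and did not pass.

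The VPS genes of ESCRT-II, an earlier step of the ESCRT route, also differed from each other. VPS25 and VPS36 are both subunits of ESCRT-II, the bridge to ESCRT-III. VPS25 stood at 0.78 and 0.71, a mean of 0.75 ± 0.05 (SD, n = 2; 1.68-fold; limma adjusted p = 0.0212). VPS36, which binds lipid and ubiquitin, gave -0.05 and -0.10 and did not pass. The gap between them was 0.83 on array 1 and 0.81 on array 2. VPS28, of ESCRT-I, stood at 0.79 and 0.51, a mean of 0.65 ± 0.20 (SD, n = 2; limma adjusted p = 0.041). VPS27, the ESCRT-0 subunit that first collects ubiquitin-tagged cargo, stood at 0.38 and 0.46, a mean of 0.42 ± 0.06 (SD, n = 2; limma adjusted p = 0.0482), and did not pass after centring.

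As deposited, ESCRT subunits and accessory proteins that carry other names were called higher in the majority, though not after centring. The complexes and partner lists were chosen with earlier results of these data known, so these shares do not test the ESCRT group. Among 13 such partner genes, 7 rose and 1 fell (5 and 1 after centring), and the median was 0.45. The genes that rose were 53.8% of these, or 38.5% after centring, where 27.1% and 24.9% of all genes rose. SNF8, the remaining ESCRT-II subunit, stood at 1.04 and 0.59 and rose. In ESCRT-I, MVB12 rose with 0.74 and 0.78, while STP22, the subunit that binds ubiquitin, gave 0.20 and -0.58, and SRN2 gave 0.20 and -0.16. The arrays disagreed in sign for STP22 and SRN2, and neither passed. SNF7, the main ESCRT-III filament protein, gave -0.05 and 0.15 and did not pass.

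Of these 13 genes, IST1 and CHM7 had the highest ratios. IST1, a regulator of VPS4, rose by 1.16 ± 0.12 (SD, n = 2), and CHM7, an ESCRT-III relative that acts at the nuclear envelope, rose by 1.03 ± 0.24 (SD, n = 2). DID2, which helps to recruit VPS4, rose by 0.65 ± 0.19. DID4, the ESCRT-III subunit also called VPS2, rose by 0.42 ± 0.05, and VTA1, an activator of VPS4, by 0.45 ± 0.10 (SD, n = 2 for each). DID4 and VTA1 did not pass after centring. The gene that fell was BRO1, whose product brings the ubiquitin-removing enzyme DOA4 to ESCRT-III, with -0.64 and -0.43. DOA4 itself gave 0.77 and 0.23 and did not pass, nor did HSE1, the partner of VPS27 in ESCRT-0, with 0.17 and 0.31.

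Retromer VPS genes lay below 0 on both arrays in 3 of 4 cases. Of 4 genes, 0 passed in either direction, where 44.3% of all genes passed. An unadjusted limma p under 0.05 was reached by 0 of the 4, against 56.8% of all genes. The group median was -0.17, or -0.27 after centring. VPS35, the scaffold of the cargo-binding trimer, gave -0.49 and -0.10. VPS29, a further trimer subunit, gave -0.01 and 0.09, the one retromer VPS gene with opposite signs. The sorting nexin genes VPS5 (-0.13 and -0.30) and VPS17 (-0.12 and -0.13), whose products bend the membrane, were below 0 on both arrays. PEP8, the third trimer subunit and also known as VPS26, stood at 0.64 and 0.44 and rose, though not after centring, so that it lay above VPS35 by 1.13 on array 1 and 0.55 on array 2. SNX3, a retromer cargo adaptor, rose with 0.77 on both arrays. PEP1, the receptor that retromer returns to the Golgi, gave -0.01 and 0.07 and did not pass.

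The GARP tether, which receives vesicles at the Golgi, was divided by sign without any gene passing. VPS51 (0.43 and 0.17) and VPS52 (0.23 and 0.10) were above 0 on both arrays, and VPS53 (-0.34 and -0.29) and VPS54 (-0.19 and -0.41) were below 0 on both. All 4 gave limma adjusted p-values between 0.0741 and 0.249. An unadjusted limma p under 0.05 was reached by 1 of 4, VPS53, against 56.8% of all genes.

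No gene of the HOPS and CORVET tethers passed, where 44.3% of all genes passed. The median of 5 VPS genes was 0.08, or -0.02 after centring. An unadjusted limma p under 0.05 was reached by 1 of 5, against 56.8% of all genes. That gene was VPS3, which with VPS8 gives CORVET its specificity: it stood at 0.71 and 0.43 and just missed the threshold (mean 0.57 ± 0.20, SD, n = 2; limma adjusted p = 0.0515, and between 0.0358 and 0.0591 under 5 moderated alternatives, passing in 2 of them). VPS8 gave -0.01 and -0.02. The core genes shared by both tethers were close to 0 or differed in sign between arrays. VPS16 gave 0.37 and -0.09, and VPS33, whose product guides membrane-fusing SNARE proteins, gave -0.04 and 0.16. VPS41, a subunit of HOPS alone, gave 0.20 and -0.04. The partner genes PEP3, PEP5 and VAM6, which complete the tethers, had means from -0.20 to -0.07, and 0 of 3 passed or had an unadjusted p under 0.05.

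The phosphatidylinositol 3-kinase genes did not pass either, and the arrays disagreed on the catalytic subunit. VPS34, the kinase that makes the endosomal lipid PI3P, gave 0.18 on array 1 and -0.42 on array 2. VPS30, found in both forms of the complex, gave 0.05 and -0.48. With SDs of 0.42 and 0.37, these genes had a spread well above the median of 0.10 for VPS genes. VPS15, the regulatory protein kinase of the complex, gave 0.36 and 0.13, and VPS38, which marks the form that serves vacuolar sorting, gave 0.26 and 0.27. Of these 4 genes, 0 had an unadjusted limma p under 0.05, against 56.8% of all genes. Of the subunits specific to the autophagy form, ATG38 stood at 1.42 and 0.74 and rose, while ATG14 gave 1.13 and -0.19 and did not pass. Of 5 genes for PI3P effectors and the lipid kinase that acts on PI3P, 1 rose and 0 fell by limma (1 was lower at an unadjusted p under 0.05). The gene that rose was 20% of these, where 27.1% of all genes rose. FIG4, whose product regulates the turnover of the lipid made from PI3P, gave 0.51 and 0.44 and rose, though not after centring.

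Set against retromer, HOPS and CORVET, the kinase complex and GARP, the ESCRT median was the higher one on both arrays. It exceeded the retromer median by 0.71 on array 1 and 0.60 on array 2, and that of HOPS and CORVET by 0.38 and 0.50. The gap was 0.36 and 0.63 over the kinase complex, and 0.57 and 0.58 over GARP. Centring an array leaves these gaps as they are. The complexes differed in gene length: 5 of 8 ESCRT genes had up to 1000 bases. Such genes were 1 of 4 in retromer, 1 of 4 in GARP, 0 of 5 in HOPS and CORVET and 0 of 4 in the kinase complex. The longer ESCRT genes VPS27, VPS36 and VPS4 had means of 0.42, -0.075 and -0.21. The part of length in these gaps was not tested. HOPS and CORVET lay above retromer by 0.33 and 0.10, and the kinase complex differed from retromer by 0.34 and -0.03. With the partner genes of each complex included, the ESCRT median lay above that of the kinase complex by 0.21 and 0.42, retromer by 0.53 and 0.31, and HOPS and CORVET by 0.52 and 0.44. Other groups of the pathway were close to ESCRT. The late endosomal pair VPS55 and VPS68 had medians of 0.56 and 0.46, within 0.03 of ESCRT on each array, and lay above retromer by 0.68 and 0.57. With partners included, the endosomal fusion genes had a median of 0.51, against 0.45 for ESCRT.

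**Figure D2:**
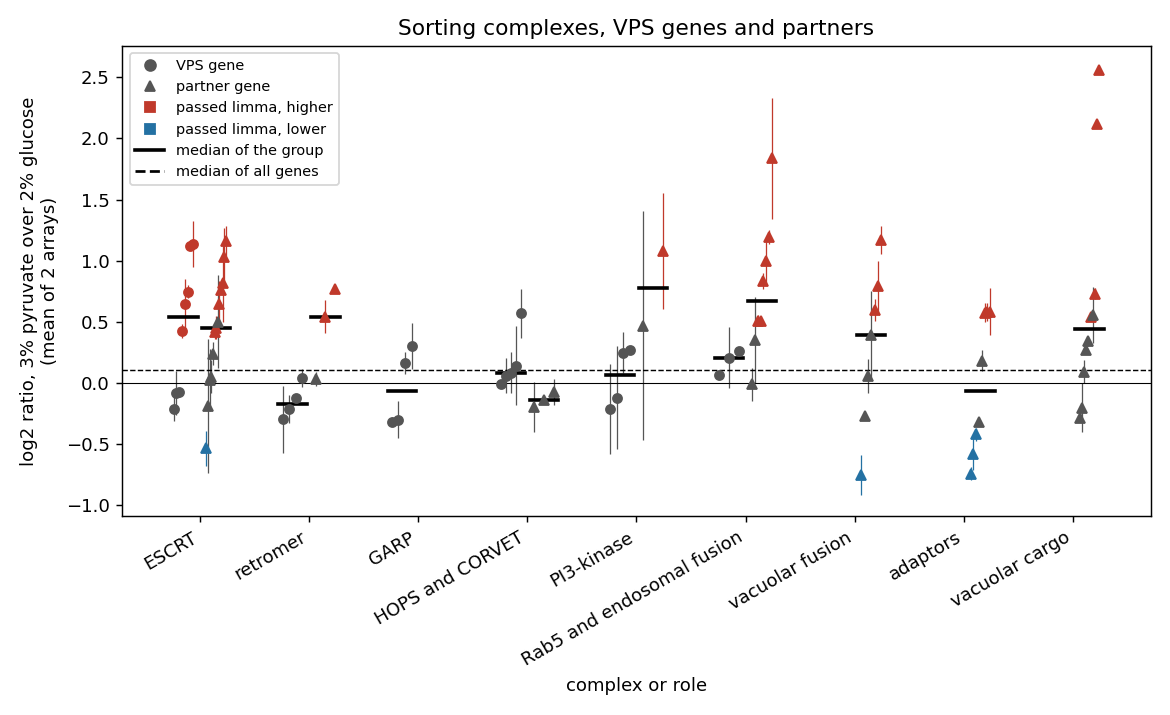
Mean log2 ratio of 2 arrays (vertical axis; bars are ± 1 SD, n = 2) for VPS genes (circles) and partner genes (triangles) of each complex or role, with black bars at the group medians and a dashed line at the median of all genes, 0.10. The ESCRT medians are 0.54 for VPS genes and 0.45 for partners, the retromer VPS median is -0.17, and the highest points are the cargo genes AMS1 and APE1.

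Endosomal fusion genes named VPS had means from 0.07 to 0.26, while most of their partners rose as deposited. VPS21, the main Rab5 protein of yeast, gave 0.05 and 0.09. VPS9, which loads VPS21 with GTP, gave 0.38 and 0.03, and VPS45, a SNARE regulator of the same step, gave 0.28 and 0.23. None of these 3 passed, and 0 had an unadjusted limma p under 0.05, against 56.8% of all genes. Among 8 partner genes, 6 rose (4 after centring) and 0 fell, with 0 lower at an unadjusted limma p under 0.05. The genes that rose were 75%, or 50% after centring, where 27.1% and 24.9% of all genes rose. YPT53, a Rab5 paralogue of VPS21, stood at 2.19 and 1.49 and rose by 1.84 ± 0.49 (SD, n = 2; 3.58-fold), which put it above VPS21 by 2.14 and 1.40 on the arrays. The SNARE genes VTI1 (0.88 and 0.78) and TLG1 (0.51 and 0.52) rose, TLG1 not after centring. The paralogue YPT52 rose with 0.54 and 0.47, though not after centring. PEP12, the SNARE of the endosome that VPS45 binds, rose by 1.19 ± 0.05 (SD, n = 2), and PEP7, the tether that joins PEP12 to VPS21, by 1.001 ± 0.18 (SD, n = 2). The remaining partners, MUK1 (0.60 and 0.10) and TLG2 (0.08 and -0.11), did not pass.

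Both VPS genes for late endosomal membrane proteins rose. VPS55 and VPS68 encode small membrane proteins that form a complex and act in transport from the late endosome to the vacuole. VPS55 stood at 0.61 and 0.48, a mean of 0.55 ± 0.09 (SD, n = 2; limma adjusted p = 0.0356). VPS68 stood at 0.50 and 0.43, a mean of 0.47 ± 0.05 (SD, n = 2; limma adjusted p = 0.0403). They differed from each other by 0.11 on array 1 and 0.05 on array 2. Neither passed after centring, where their means were 0.44 and 0.36.

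VPS13, which encodes a very large protein that moves lipids between membranes at contact sites, stood at 0.55 and 0.46 and rose (mean 0.51 ± 0.07, SD, n = 2; limma adjusted p = 0.0369), though not after centring. VPS1, a dynamin-like GTPase that cuts vesicles from membranes, gave 0.24 and 0.39 and did not pass. VPS74, which holds sugar-adding enzymes in the Golgi, gave -0.20 and -0.04 and did not pass.

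A few genes carry a VPS name but act in chromatin. VPS71 and VPS72 encode subunits of the SWR1 complex, which places the histone variant H2A.Z, and VPS75 encodes a histone chaperone. VPS71 stood at 0.86 and 1.003, a mean of 0.93 ± 0.10 (SD, n = 2; 1.91-fold; limma adjusted p = 0.0188), below only VPS20 and VPS60 among the VPS genes. VPS72 gave -0.21 and -0.42 and VPS75 gave -0.25 and -0.45, and neither passed. The 2 SWR1 subunit genes thus lay 1.07 apart on array 1 and 1.42 on array 2.

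The gene that fell was VPS70, whose product has a little-studied role in sorting. It stood at -0.62 and -0.64, a mean of -0.63 ± 0.01 (SD, n = 2; 1.55-fold lower; limma adjusted p = 0.0248). VPS64 (-0.26 and -0.32), linked to cell cycle arrest by pheromone, and VPS501 (-0.21 and -0.11), a sorting nexin relative, were below 0 on both arrays and did not pass. VPS73, of the sugar transporter family, gave 0.33 and 0.10. VPS62 gave 0.32 and -0.32, the widest spread between arrays of all VPS genes (SD 0.45).

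**Figure D3:**
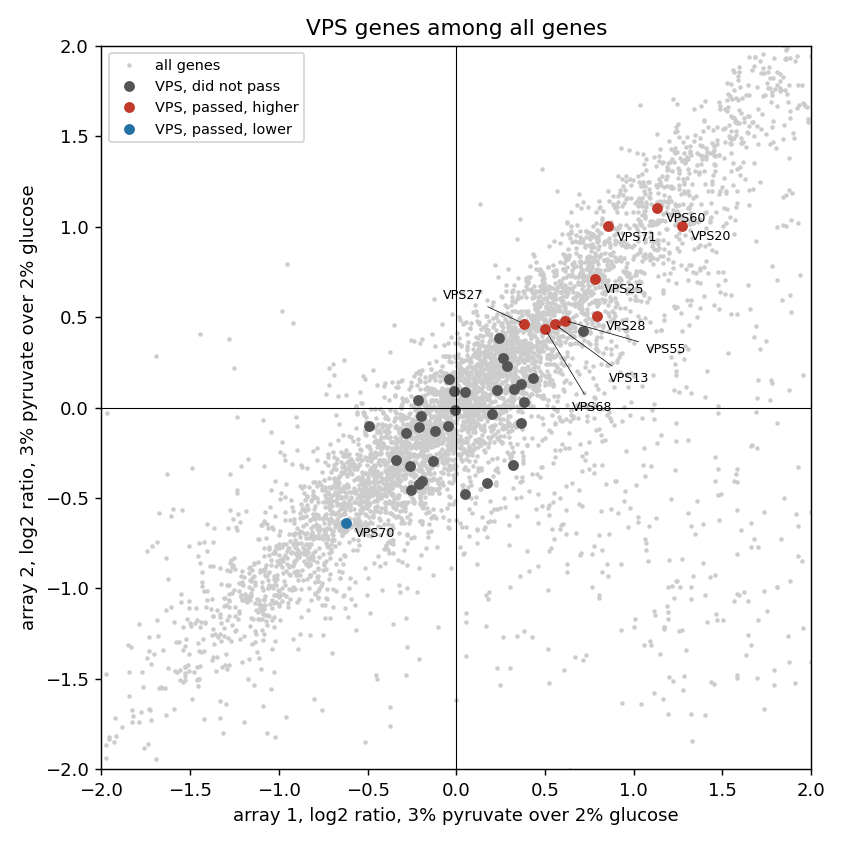
Log2 ratio of pyruvate over glucose on array 1 (horizontal) against array 2 (vertical) for all genes (grey) and the 41 VPS genes (coloured by limma's result); 391 genes beyond ± 2 on either axis are not shown. The VPS genes that passed lie near the diagonal, while VPS34, VPS30 and VPS62 lie below it, with array 2 negative and array 1 positive.

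The members differed in gene length, and shorter genes had higher ratios. Of 12 VPS genes of up to 1000 bases, 7 rose and 0 fell by limma (1 was lower at an unadjusted p under 0.05), and of 29 longer ones 2 rose, VPS13 and VPS27, and 1 fell. Over all genes with a known length, 39.5% of those up to 1000 bases and 19.7% of longer ones rose, and 9.62% and 21.8% fell. The Spearman correlation of mean ratio with length was -0.35 across the 41 VPS genes and -0.30 across 5593 genes, which share the same arrays and labelling and are not independent replicates. Within genes of up to 1000 bases it was -0.16 for VPS genes and -0.18 for all genes, and within longer genes 0.03 and -0.15. With partner genes included it was -0.45 over 100 genes, -0.03 within the shorter and -0.18 within the longer ones. Of these 100 genes, 71.9% of those up to 1000 bases and 19.1% of longer ones rose, and 0% and 8.82% fell. The ESCRT group had a median length of 709.5 bases, against 1842 for retromer, 2151 for the kinase complex and 2979 for HOPS and CORVET. Among genes of up to 1000 bases, 4 of 5 in ESCRT and 3 of 7 outside it rose. Among longer genes the counts were 1 of 3 and 1 of 26. All counts by length are as deposited. After centring, neither of the longer genes that rose, VPS27 and VPS13, passed. Nor did VPS55 and VPS68, shorter genes outside ESCRT. The part of length in the ratios was not tested.

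**Figure D4:**
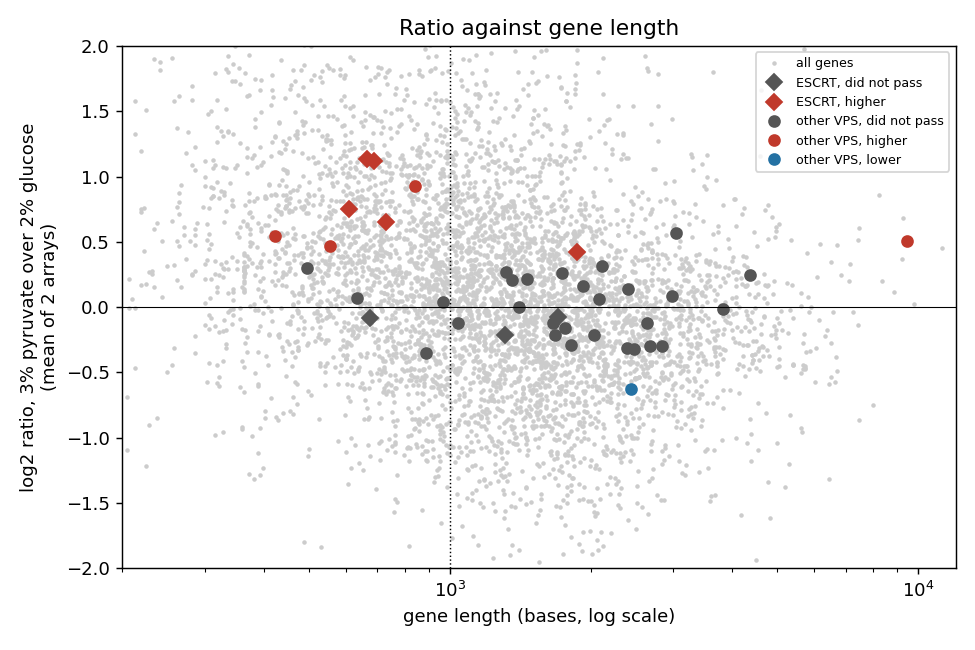
Mean log2 ratio of 2 arrays (vertical axis) against gene length in bases (horizontal log axis) for all genes (grey), ESCRT genes (diamonds) and other VPS genes (circles), with a dotted line at 1000 bases; 326 genes outside the axes or without a length are not shown. Of the 9 red genes that rose as deposited, 7 lie left of the line, and VPS27 and VPS13 lie right of it.

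Beyond the VPS genes, 59 partner genes of the sorting pathway were measured, of which 27 rose, 5 fell and 27 did not pass (18 and 5 after centring). The counts as deposited were 45.8% and 8.47% of the partners, where 27.1% and 17.2% of all genes rose and fell. After centring they were 30.5% and 8.47%, where the shares of all genes were 24.9% and 22.5%. The partner lists were chosen with earlier results of these data known, so these shares do not test the pathway. Among 7 genes of vacuolar fusion, 3 rose and 1 fell, or 42.9% and 14.3%, the same as after centring. The vacuolar SNARE genes NYV1 (1.09 and 1.25) and VAM7 (0.53 and 0.66) and YPT7 (0.64 and 0.94), the Rab protein that HOPS binds, rose, whereas MON1 (-0.64 and -0.87), part of the factor that activates YPT7, fell. Its partner CCZ1 gave 0.15 and -0.04 and did not pass. The SNARE genes VAM3 (-0.27 and -0.28) and YKT6 (0.13 and 0.64) did not pass either. VAM7 and YPT7 passed after centring, but not after centring with scaling of both arrays to the same spread. Among 8 adaptor genes, 3 rose and 3 fell, or 37.5% each (1 and 3 after centring, or 12.5% and 37.5%). ENT3, an adaptor of the epsin type, rose with 0.53 and 0.63, though not after centring. The Golgi adaptor genes GGA1 (0.52 and 0.63) and GGA2 (-0.78 and -0.71) moved in opposite directions, but GGA1 did not pass after centring. In the AP-3 adaptor, which serves a route to the vacuole that bypasses endosomes, APL5 (-0.49 and -0.67) and APL6 (-0.38 and -0.46) fell and APS3 (0.72 and 0.45) rose. APS3 passed after centring, but not after centring with scaling. APM3, of the same adaptor, gave -0.32 on both arrays and did not pass.

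Of 10 genes for vacuolar cargo, 4 rose, 0 fell and 6 did not pass by limma (3 rose and 0 fell after centring). The genes that rose were 40%, or 30% after centring, where 27.1% and 24.9% of all genes rose. Above 0 on both arrays were 8 genes, and below 0 on both were PHO8 (-0.31 and -0.26) and APE3 (-0.345 and -0.06). Of the 10 genes, 1 was lower at an unadjusted limma p under 0.05, PHO8. AMS1, the vacuolar alpha-mannosidase, rose by 2.56 ± 0.02 (SD, n = 2; 5.91-fold) and APE1, an aminopeptidase, by 2.12 ± 0.03 (SD, n = 2; 4.33-fold). AMS1 and APE1 reach the vacuole mainly by an autophagy-related route and not through endosomes. ATG42, a vacuolar carboxypeptidase, rose with 0.76 and 0.70. PEP4, the protease that activates other vacuolar enzymes, rose with 0.54 and 0.55, though not after centring. PRC1, carboxypeptidase Y, the cargo by whose secretion many VPS genes were found, gave 0.39 and 0.72 and did not pass (mean 0.55 ± 0.23, SD, n = 2; limma adjusted p = 0.061).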

How the data were processed

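The values used were log2 ratios of the channels in the authors' deposited table, 10807 features on each of 2 arrays, with 10 and 6 missing. Per the labels, an Agilent linear amplification kit was used for labelling and the dyes were swapped. No source used here describes background correction or normalization. The log base and likely channel order come from the values and the labels' channel order: 935 and 784 features lay at log2 of ratios of whole numbers up to 10, after subtracting 0.008 on array 2, against medians of 136 and 141.5 at other offsets. Such features were read as dim.

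The deposited medians were -0.294 and -0.076, so the arrays were not centred on 0; scaling between arrays stays unknown. Array 1 was multiplied by -1. Between the deposited columns Pearson's r was -0.81 over features of named genes, 0.86 over unnamed features and 0.157 over all. The platform annotation named 1 gene for 9202 features and none for 1605, and 9194 features were matched to current symbols through gene identifiers. Features of a gene were averaged: 25 VPS genes had 2 features, 16 had 1, and the widest gap between features of a VPS gene was 0.26. Gene lengths come from RefSeq assembly R64 and include introns. Coordinates and promoter motifs are not used here.

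The mean of the arrays was tested against 0 for all 5598 genes with limma 3.58.1 under R 4.3.3 (eBayes; 1 residual and 1.67 prior degrees of freedom), adjusted by Benjamini and Hochberg's method at a threshold of 0.05. In 20 simulations of the comparison of pyruvate and glucose with 5598 genes, 200 of them changed, limma recovered 0.5% of changes of 2-fold, 0% of those of 1.5-fold, 62.7% of 4-fold changes and 88.8% of 16-fold changes, with 5.82% of calls false. Far more genes passed in the data than were changed in the simulations, and the smallest mean that passed was 0.3975, so this recovery does not carry over to the data.

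The members, complexes and partner lists were chosen with earlier results of these data known. VPS genes could all be named. From partner lists, the genes that passed limma could be named, and any other partner gene named here was chosen after its values were seen unless it was among the 2 with the largest absolute mean of its list. Alternatives were centring the arrays, centring with scaling, medians over features, leaving out dim features, robust or no moderation, a 2-fold rule on both arrays, platform symbols and single arrays.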

Additional observations from a re-analysis of the deposited data

How the results depend on the processing

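Medians over features and platform symbols changed no count of VPS genes called, and robust moderation or leaving out dim features added 1, VPS3, to those that rose. Centring the arrays, and centring with scaling to 1 spread, each left 5 VPS genes higher (in place of 9) and 1 lower. The same 6 of the 10 genes called (VPS20, VPS25, VPS28, VPS60, VPS71 and VPS70) passed limma under all 5 moderated alternatives. Without moderation 0 VPS genes rose and 0 fell after adjustment (5 higher and 2 lower at an unadjusted p under 0.05), and over all genes 5 rose and 5 fell. The 2-fold rule gave 2 VPS genes higher and 0 lower, 713 and 269 of all genes, and 6 and 0 of the partner genes, of which 15 rose after centring with scaling. The following were chosen after seeing the data: members widened by synonyms gave 16 higher and 2 lower, and members of up to 1000 bases 7 higher and 0 lower.

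After centring, and after centring with scaling, the median ratio was -0.035 and -0.029 for all VPS genes, 0.43 and 0.44 for ESCRT, -0.27 and -0.27 for retromer, -0.17 and -0.17 for GARP, -0.019 and -0.022 for HOPS and CORVET, and -0.039 and -0.047 for the kinase complex. The sign thus turned for all VPS genes, HOPS and CORVET, and the kinase complex, whose medians were 0.067, 0.083 and 0.062 as deposited. Adding partner genes gave 0.45 for ESCRT, 0.26 for the kinase complex, 0.023 for HOPS and CORVET, and 0.03 for retromer, whose sign turned. Without dim features the GARP median was 0.16, from 3 genes. On single arrays the medians ran from 0.044 to 0.20 for all VPS genes, -0.016 to 0.20 for HOPS and CORVET, -0.15 to 0.22 for the kinase complex, -0.125 to -0.118 for retromer and -0.098 to 0.018 for GARP. Genes near 0 that turned sign after centring, and after centring with scaling, and passed in neither, were VPS21 (-0.035 and -0.029), VPS29 (-0.064 and -0.056), VPS33 (-0.043 and -0.032), VPS41 (-0.019 and -0.022), SRN2 (-0.078 and -0.085), SNF7 (-0.051 and -0.040), PEP1 (-0.072 and -0.064), CCZ1 (-0.048 and -0.049) and PRB1 (-0.0091 and -0.0084). Each of these genes had a mean as deposited above 0 but below the shift of all genes, averaged over the arrays, that centring removes. Their turn of sign after centring follows from that subtraction.

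A single array leaves no residual degree of freedom, so calls were not recomputed on it. No paired analysis was possible because the arrays form 1 group, with no second group to block on, and each ratio is already a difference within an array. The table gives no signal over background, so bright or dim spots beyond those at ratios of whole numbers could not be judged. Of the VPS features, 3 were of that kind, in VPS9, VPS33 and VPS54.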

Other observations

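Several genes with a VPS number now carry another symbol, and RefSeq lists 17 measured genes with such a number among their synonyms only. Of these 17 genes, 7 rose, 1 fell and 9 did not pass, against 9, 1 and 31 of the 41 genes named VPS. The genes that rose and fell were 41.2% and 5.88% of the 17, where 27.1% and 17.2% of all genes rose and fell. Among the 7 that rose, DID4 and PEP8 did not pass after centring. Those not described above were NHX1 (VPS44), the sodium and proton exchanger of the endosome, at 0.18 ± 0.05, and LOA1 (VPS66), an acyltransferase, at 0.20 ± 0.11 (SD, n = 2 for each); neither passed.

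VPS52, VPS72 and VPS60 are consecutive protein-coding genes in the RefSeq order (YDR484W, YDR485C and YDR486C). Their mean ratios were 0.16, -0.32 and 1.12, of which the last passed limma. VPS60 lay above its neighbour VPS72 by 1.34 on array 1 and 1.53 on array 2. No other pair of VPS genes was adjacent.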
